A study of Mus musculus with 2 samples.

Results

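Folr2 Lyve1 resident-like macrophages formed a small set of C1q-positive cells in MC38 tumors and were selected on their own transcripts. A barcode was kept when it had 500 or more genes and no more than 20% of its UMIs (unique molecular identifiers, each standing for 1 captured transcript) from mitochondrial genes. Among these, members were chosen by 4 conditions on UMI counts. C1qa, C1qb and C1qc together made up at least 0.1% of the UMIs of a cell, Folr2 and Lyve1 together gave at least 2 UMIs, the cell-cycle genes Mki67, Top2a and Birc5 together gave at most 2, and Cd3d, Cd3e and Cd3g gave 0. The conditions were met by 59 cells of the untreated library and 172 cells of the MSA-2 library, 231 of 29003 deposited barcodes, of which 28002 were kept. Cells that met every condition but carried fewer than 2 Folr2 and Lyve1 UMIs are called other C1q cells. They numbered 3580 untreated and 1286 after MSA-2 and served as the comparison within each library.

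MC38 is a mouse colon adenocarcinoma line, here grown as tumors in C57BL/6 mice aged 6 to 8 weeks. MSA-2, a small-molecule agonist of the adaptor protein STING, was injected into the tumors in 3 doses given every 3 days, and the methods place tumor collection on day 7. The comparison library is labelled as untreated, whereas the series record describes injection of saline with 10% DMSO as vehicle. Each library held a pool from 3 mice or samples, and there was 1 library per condition, so the spread between tumors could not be measured and no test was possible. The labels name tumor cells as the cell type, and the methods state that cells were sorted without naming a gate. All shares below are therefore shares of captured cells, which a sort can set. The untreated library held 198135335 UMIs over 14386 barcodes and the MSA-2 library 204387165 UMIs over 14617 barcodes, with medians of 8775 and 9706 UMIs per kept cell. Members had a median of 6063 UMIs and 2256 genes untreated and 6826.5 UMIs and 2469 genes after MSA-2, while other C1q cells had 5195 and 3888.5 UMIs. The libraries shared 53 barcode sequences, among them 0 untreated members and 1 MSA-2 member.

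Macrophages that live in tissue between inflammatory episodes are often recognised by folate receptor beta (Folr2), the hyaluronan receptor Lyve1 and scavenger receptors such as Mrc1 and Cd163. They lie mostly around vessels and in connective tissue, take up dying cells and debris, and are long-lived compared with macrophages that have recently arisen from blood monocytes. STING carries the signal of cytosolic DNA sensing to the induction of type I interferon, which in turn switches on a broad set of antiviral genes in macrophages.

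Members made up a larger share of the C1q cells after MSA-2. They were 1.62% (1.24 to 2.09) of C1q cells in the untreated library, 59 of 3639, and 11.8% (10.2 to 13.6) in the MSA-2 library, 172 of 1458, a log2 ratio of 2.86 (2.43 to 3.32). Here and below, bracketed ranges are 95% intervals that cover counting error only, exact for counts, shares and ratios, and a normal interval on the log scale for a difference of 2 log2 ratios. Of all kept cells, members were 0.42% (0.32 to 0.542) untreated and 1.23% (1.06 to 1.43) after MSA-2, a log2 ratio of 1.55 (1.12 to 2.0). Other C1q cells went the opposite way, from 25.5% (24.8 to 26.2) to 9.21% (8.74 to 9.7) of kept cells, a log2 ratio of -1.47 (-1.56 to -1.38). The share of C1q cells thus combined more members with fewer other C1q cells per kept cell. With shares of a whole, more cells of a type and fewer of the others cannot be told apart.

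**Figure D1:**
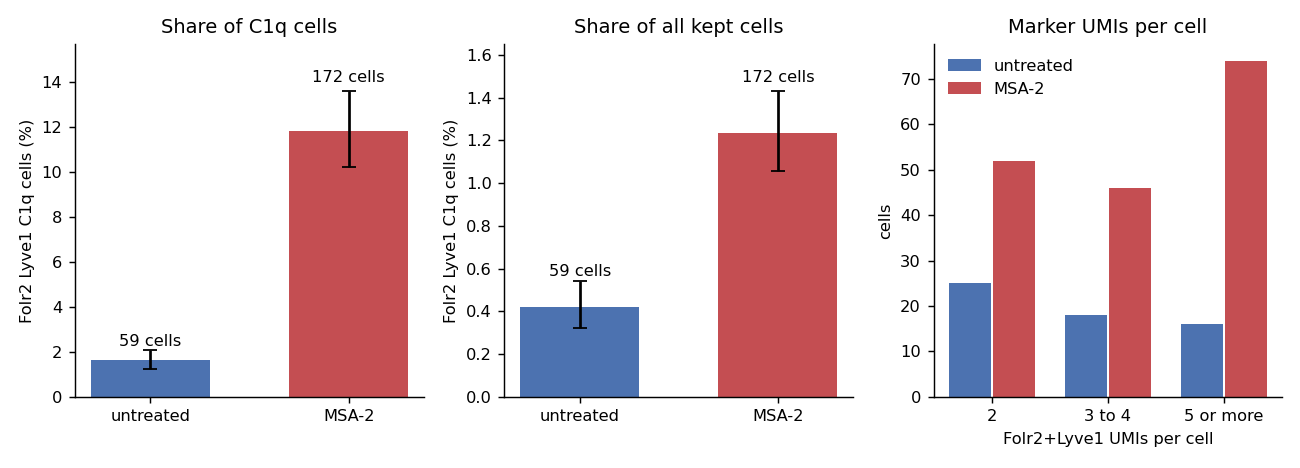
Share of C1q cells (left) and of all kept cells (middle) that were Folr2 Lyve1 cells in the untreated and MSA-2 libraries, in percent, with exact 95% intervals for counting error and the number of cells above each bar. The right panel counts these cells by the UMIs of Folr2 and Lyve1 each carried; 16 untreated and 74 MSA-2 cells had 5 or more.

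Because a deeper cell passes a limit of 2 UMIs more easily, the rule was also applied to cells thinned by random draws to 2000 UMIs each, leaving out 1057 untreated and 2566 MSA-2 cells that were shallower. This gave 31 of 4597 C1q cells untreated, 0.674% (0.459 to 0.956), and 71 of 1460 after MSA-2, 4.86% (3.82 to 6.09), with a log2 ratio of 2.85 (2.22 to 3.51). The limits act on the thinned counts, so these C1q cells are not the same set as the 3639 and 1458 unthinned ones. At 5000 UMIs the shares were 35 of 2268, 1.54% (1.08 to 2.14), and 121 of 621, 19.5% (16.4 to 22.8), a log2 ratio of 3.66 (3.11 to 4.24). At equal depth, too, the share was higher in the MSA-2 library.

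The UMIs that chose the members were few per cell. In the untreated library 25 members carried 2 UMIs, 18 carried 3 or 4 and 16 carried 5 or more, with a median of 3 and a highest value of 15. After MSA-2 the same classes held 52, 46 and 74 members, with a median of 4 and a highest value of 27. Just outside the limit, 108 untreated and 130 MSA-2 C1q cells carried 1 UMI. Folr2 gave most of the counts, with 175 UMIs against 70 of Lyve1 in untreated members and 677 against 261 in MSA-2 members. Members with Folr2 and without Lyve1 numbered 28 untreated and 96 after MSA-2, those with Lyve1 and without Folr2 numbered 5 and 3, and those with both numbered 26 and 73. These counts describe the selection and support nothing further. Members held 39.8% (35.9 to 43.8) of all Folr2 and Lyve1 UMIs of kept cells in the untreated library and 62% (59.5 to 64.4) in the MSA-2 library.

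Free RNA in droplets can place UMIs in cells that do not express a gene, so the same limit was applied to cells that should lack these markers. At least 2 Folr2 and Lyve1 UMIs were found in 1 of 1288 cells with 2 or more Cd3 UMIs in the untreated library, 0.0776%, at a median depth of 3709 UMIs. After MSA-2 it was 1 of 166 such cells, 0.602%, at a median of 5146.5 UMIs. Of cells without a UMI of the leukocyte gene Ptprc, 2 of 4893 untreated, 0.0409%, and 7 of 8324 after MSA-2, 0.0841%, met it, at medians of 16339 and 13945.5 UMIs. At 2000 UMIs, 0 of 1148 and 0 of 148 Cd3 cells did so, which allows shares of up to 0.321% and 2.46%. At 5000 UMIs it was 1 of 448 untreated Cd3 cells, 0.223%, with an interval up to 1.24%. After MSA-2 it was 0 of 85, which allows up to 4.25%. The member shares of C1q cells lay above these values, unthinned, at 2000 and at 5000 UMIs. At 5000 UMIs the untreated intervals of members and Cd3 cells overlapped.

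The label was checked against marker genes fixed for each cell type. All 10 macrophage genes, among them Csf1r, Adgre1 (F4/80), Fcgr1 and Cd68, were detected in members of both libraries. Their summed level was 10556 CPM (UMIs scaled to a total of 1000000 per group) untreated and 7164 CPM after MSA-2, against 8119 and 6153 CPM in other C1q cells, with the lysozyme gene Lyz2 the most abundant. Lyve1 also marks lymphatic endothelium. Of that cell type's other markers Prox1, Flt4, Mmrn1, Ccl21a and Reln were at 0 UMIs in members of both libraries, and Pdpn, at 107 and 263 CPM, stood below or near its level over all kept cells, 154 and 265 CPM. Of the blood endothelial markers Cdh5, Emcn and Cldn5 were at 0 in both. By these genes the label of macrophage fits the members, and lymphatic markers other than Lyve1 and Pdpn were not detected. As a description of the selection, C1qa was at 7116 and 6682 CPM in members and at 5801 and 4034 CPM in other C1q cells.

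Markers of other leukocytes and stroma were low in members, with exceptions. The dendritic cell genes summed to 10.4 CPM untreated and 6.93 CPM after MSA-2, with Xcr1, Clec9a and Flt3 at 0 in both. T and NK cell genes summed to 13 and 3.08 CPM, with Nkg7 the most abundant and Cd8a, Cd4, Ncr1 and Klrb1c at 0. B and plasma cell genes summed to 60.0 and 5.39 CPM, with Ms4a1 at 0, against 20.4 and 5.54 CPM over all kept cells. The untreated sum was thus above that of the library and was led by Ighm, at 49.6 CPM in members and 49.1 CPM in other C1q cells, and its part in other results was not tested. Mast cell genes summed to 5.22 and 2.31 CPM and hemoglobin genes to 2.61 and 1.54 CPM, from 1 and 2 UMIs. Fibroblast genes reached 660.2 and 634 CPM, led by Col3a1 at 462 CPM untreated and by Dcn at 262 CPM after MSA-2, below the 2162 and 3468 CPM of all kept cells. The 6 keratin and epithelial genes chosen to mark MC38 cells summed to 1.63 and 0.898 CPM even over all kept cells, so they cannot show tumor cell RNA here. Genes of Ly6c2-type monocytes summed to 1067 CPM in untreated members, led by fibronectin (Fn1), and to 1482 CPM in MSA-2 members, led by Plac8 at 1017 CPM. Other C1q cells had 891 CPM untreated and 1945 CPM after MSA-2, with Plac8 at 1017 CPM after MSA-2. All kept cells had 1268 and 1458 CPM. The MSA-2 member sum was thus near that of the library and below that of other C1q cells, and the untreated one was above other C1q cells. Scrublet called 2 of 59 untreated and 4 of 172 MSA-2 members as doublets, against 5.02% and 4.08% of kept cells, and these were kept in the comparisons.

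To compare members with other C1q cells of the same library, UMIs were summed over the cells of each group, expressed as CPM, and compared as log2 ratios with 1 CPM added, for genes with at least 50 CPM in either group and 50 UMIs in both together. A log2 ratio of sums followed by an interval is without the added CPM. Genes of the rule were left out. In the untreated library 162 of 3499 genes (4.63%) were at least 2-fold higher in members and 152 (4.34%) at least 2-fold lower. In the MSA-2 library 124 of 3330 genes (3.72%) were higher and 142 (4.26%) lower. Of 2958 genes compared in both libraries, 71 (2.4%) were past the fold upward in both and 50 (1.69%) downward in both.

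Lectins stood at the head of the genes higher in both libraries. The SIGN-R family lectin gene Cd209f was at 190.5 CPM in untreated members against 0.604 in other C1q cells, and at 63.2 against 0.724 CPM after MSA-2, log2 ratios of 6.90 and 5.22. Ficolin A (Fcna), a secreted lectin that starts the lectin pathway of complement, was at 138 against 1.21 CPM untreated and 138 against 4.89 CPM after MSA-2. The galactose-type lectin Clec10a followed with log2 ratios of 3.78 and 3.85. These 3 genes were rare in other C1q cells of either library. The enzymes Cbr2, a carbonyl reductase, and Ltc4s, which makes leukotriene C4, had log2 ratios of 5.65 and 3.93 untreated and 3.61 and 3.04 after MSA-2.

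Several of the 15 genes encode secreted factors. The monocyte-attracting chemokine Ccl8 was the most abundant of the 15 genes named for a higher level in untreated members, at 3987 CPM against 502 in other C1q cells, and at 3568 against 378 CPM after MSA-2. Ccl6, another chemokine, was at 2054 against 216 CPM and at 3640.0 against 767 CPM. Wfdc17, a secreted protein with a whey acidic protein domain, had log2 ratios of 2.78 and 2.45. The group also held Gas6, the bridging ligand by which Axl and Mertk recognise dying cells, at 3.97 and 2.36, and the acute-phase gene Saa3 at 4.84 and 2.22. For Saa3 the untreated ratio was 2.25 at 5000 UMIs per cell. Genes for 2 chemokines and Gas6 thus stood beside those of lectins among the 15.

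Among receptors and adhesion genes, the endothelin receptor Ednrb was at 214 against 2.41 CPM untreated and 86.3 against 13.2 CPM after MSA-2. Fcgrt, the receptor that recycles immunoglobulin G, had log2 ratios of 2.54 and 2.50. The elastase gene Cela1, the focal adhesion gene Tns1 and the receptor phosphatase Ptprm had log2 ratios between 2.25 and 2.57 over both libraries. The 15 genes were named for the highest lower value of the 2 libraries' ratios, so being past the fold in both follows from that choice.

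**Figure D2:**
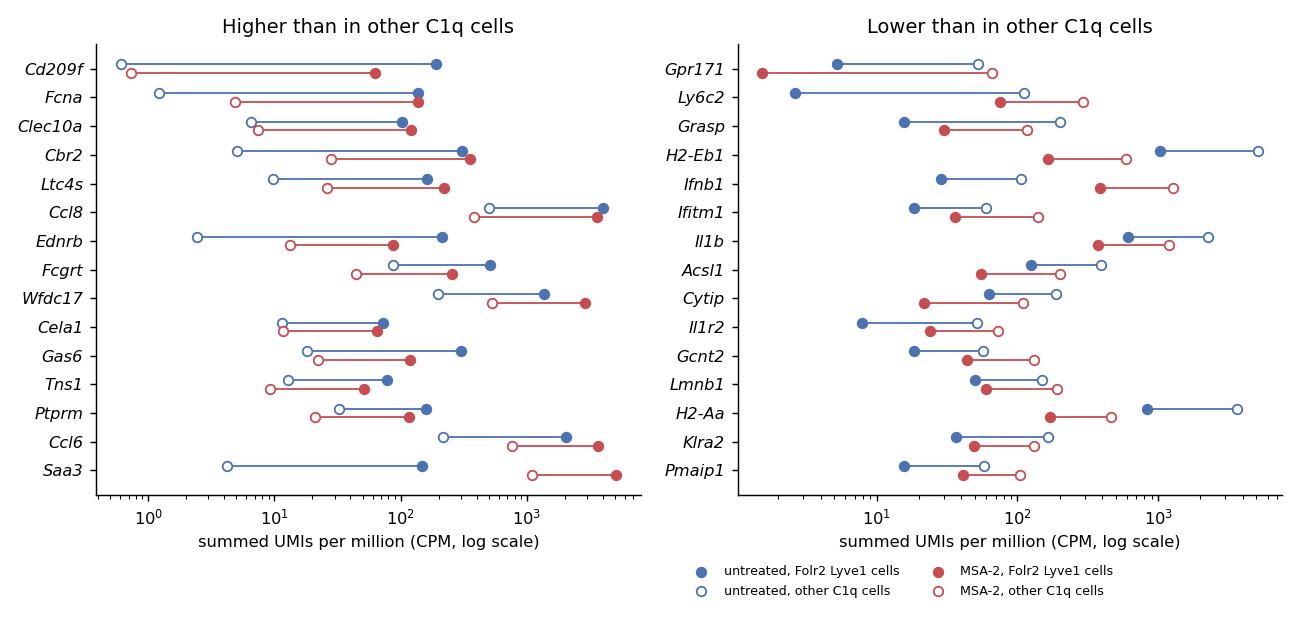
Summed level in CPM, on a log scale, of 15 genes named for a high (left) and 15 named for a low (right) ratio of Folr2 Lyve1 cells (filled circles) over other C1q cells (open circles) in both libraries. Blue marks the untreated and red the MSA-2 library, 1 value per gene, group and library; Cd209f and Fcna show the widest gaps on the left and Ly6c2, untreated, and Gpr171, after MSA-2, on the right.

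Genes lower in members of both libraries included Ly6c2, Il1b, Ifnb1 and class II genes. Ly6c2, a surface protein of classical monocytes, had 1 UMI in untreated members, 2.61 CPM against 111, and was at 75.5 against 291 CPM after MSA-2. The counting interval of its untreated log2 ratio ran from -10.71 to -2.93. The orphan receptor gene Gpr171 had 2 UMIs in members of each library, with log2 ratios of -3.32 (-6.37 to -1.47) and -5.42 (-8.47 to -3.55) without added CPM. Il1b, which encodes the inflammatory cytokine interleukin-1 beta, was at 611 against 2257 CPM untreated and 377 against 1189 CPM after MSA-2. Il1r2, the decoy receptor for the same cytokine, was lower as well, with 3 UMIs in untreated members, 7.83 against 51.8 CPM, and 23.9 against 72.9 CPM after MSA-2.

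The interferon beta gene Ifnb1 was lower in members than in other C1q cells of the same library. It was at 28.7 CPM in untreated members, from 11 UMIs, against 106 CPM, and at 389 against 1277 CPM after MSA-2, log2 ratios of -1.85 and -1.71. After thinning to 2000 UMIs, 33.5% of MSA-2 members carried an Ifnb1 UMI against 69% of other C1q cells and 6.76% of Cd3 cells. Unthinned the shares were 58.7%, 72.9% and 17.5%, and thinning left out 2 members, 272 other C1q cells and 18 Cd3 cells. The MSA-2 member share thus lay between that of other C1q cells and that of cells with background counts. In the untreated library 1 of 57 members, 1.75% (0.0444 to 9.39), carried a UMI after thinning, against 12.5% of other C1q cells and 0.784% of Cd3 cells. Unthinned these shares were 11.9%, 18.3% and 2.25%. At equal depth the untreated member share cannot be told apart from background.

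The other genes named for a lower level had log2 ratios of -1.34 or lower in both libraries. They were the scaffold gene Grasp, the interferon-induced Ifitm1, the acyl-CoA synthetase Acsl1, the cytohesin-binding protein gene Cytip, the glycosyltransferase Gcnt2, the lamin gene Lmnb1, the lectin-like receptor Klra2 and the proapoptotic gene Pmaip1. The class II genes H2-Eb1 and H2-Aa completed the 15 and are described with antigen presentation. At 2000 UMIs per cell the untreated log2 ratios of Ifitm1, Acsl1, Gcnt2 and Lmnb1 were -0.95, -0.87, -0.69 and -0.55, and that of Gcnt2 after MSA-2 -0.60, so these genes were then within the fold. At 5000 UMIs the same held after MSA-2 for Gcnt2, at -0.90, and for Il1r2, at -0.64.

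Across the list of resident and scavenger receptor genes, most were higher in members. Of genes with at least 10 UMIs in the groups compared, 25 of 28 were at least 2-fold higher untreated and 22 of 26 after MSA-2, and 0 were lower in either. Their median log2 ratios were 3.16 and 2.56. Over all genes with 10 UMIs the medians were -0.16 and -0.01, with 6.31% and 3.4% past the fold upward. The mannose receptor Mrc1 was at 624 against 178 CPM untreated and 759 against 233 CPM after MSA-2. The hemoglobin scavenger receptor Cd163 was at 44.4 against 0.402 CPM and 50.8 against 3.62 CPM, and Timd4, a receptor for phosphatidylserine on dying cells, at 20.9 against 0.151 CPM and 13.9 against 0.724 CPM. Cd163 and Timd4 were thus low in members and lower still in other C1q cells. At 2000 UMIs Cd163 was found in 7.02% of untreated and 8.24% of MSA-2 members, and Timd4 in 1.75% and 2.94%. In Cd3 cells the shares were 0.0871% and 0.174% untreated and 0 of 148 for both after MSA-2, which allows up to 2.46%. For Timd4 the member intervals reach down to 0.0444% and 0.962%, so its shares cannot be told apart from background. Unthinned, each gene was found in 4 of 59 untreated members, and in 29 and 8 of 172 MSA-2 members.

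As shares of cells at 2000 UMIs, 54.4% of untreated and 58.8% of MSA-2 members had an Mrc1 UMI, against 23% and 25.2% of other C1q cells. In Cd3 cells the shares were 0.958% untreated and 0 of 148 cells after MSA-2, which allows up to 2.46%. Cbr2 was found in 38.6% and 40.6% of members, 0.899% and 4.04% of other C1q cells and 0.348% and 0.676% of Cd3 cells. Unthinned, the Cbr2 shares in members were 57.6% and 62.8%, and those of Mrc1 72.9% and 81.4%. In other C1q cells the unthinned shares were 2.12% and 6.3% for Cbr2 and 40.1% and 33.2% for Mrc1. Neither gene was detected in every member, and both shares were well above those in Cd3 cells.

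Iron and lipid genes differed less. Of the iron handling genes 4 of 8 were at least 2-fold higher in members untreated and 3 of 9 after MSA-2, with medians of 1.04 and 0.68. Here and for the lipid-associated list, 6.31% and 3.4% of all genes were that much higher and 18.2% and 7.82% lower. The untreated median was about 0 at 2000 UMIs per cell. Heme oxygenase Hmox1, which releases iron from heme, was at 1114 against 215 CPM untreated and 970.5 against 379 CPM after MSA-2, and Blvrb, which reduces flavins and some biliverdins, at 485 against 212 and 531 against 185 CPM. The lipid-associated list had medians of 0.52 and 0.47, with 2 of 12 genes past the fold upward in each library and 0 and 1 downward. Its lysosomal protease genes Ctsb and Ctsd were at 3147 and 1978 CPM in untreated members against 1601 and 681 CPM in other C1q cells. Identity transcription factors had medians of -0.02 and 0.17, and Maf, a factor of self-renewing and resident macrophages, was at 289.7 against 117 CPM untreated and 374 against 141 CPM after MSA-2.

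Levels of several gene lists differed with the number of Folr2 and Lyve1 UMIs in a cell. In C1q cells with 0, 1, 2, 3 to 4 and 5 or more of these UMIs, the resident and scavenger receptor genes, which do not include the rule genes, summed to 2038, 5031, 6215, 12365 and 18356 CPM untreated. After MSA-2 they summed to 2741, 7101, 7710.1, 10356 and 14897 CPM. The summed level was higher in each successive class of both libraries, and cells just outside the limit were close to those just inside it. Class II genes showed the opposite order in the untreated library, 22137, 11813, 7439, 4159 and 3405 CPM, and were lower throughout after MSA-2, 3206, 1315, 1906, 935 and 895 CPM. Ifnb1 in the MSA-2 library was lower in each successive class, 1343, 804, 577, 503 and 232 CPM, while the interferon-stimulated genes differed less, 32239, 29106, 26219, 24762 and 22987 CPM. The untreated classes had no such order, with Ifnb1 at 108, 51.6, 20.6, 37.5 and 28.7 CPM and the interferon-stimulated genes at 10481, 8102, 5197, 5510.4 and 8044 CPM. These classes use the UMIs of the rule, and a range of cells and a mixture of 2 groups cannot be told apart from them. Depth differed between the classes as well, without a strict order. In the same order of classes the median UMIs per cell were 5159.5, 6170, 5891, 6913.5 and 6805 untreated. After MSA-2 they were 3808, 5099, 6243.5, 5970.5 and 7912. The part of depth in the orders of the gene levels was not tested.

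**Figure D3:**
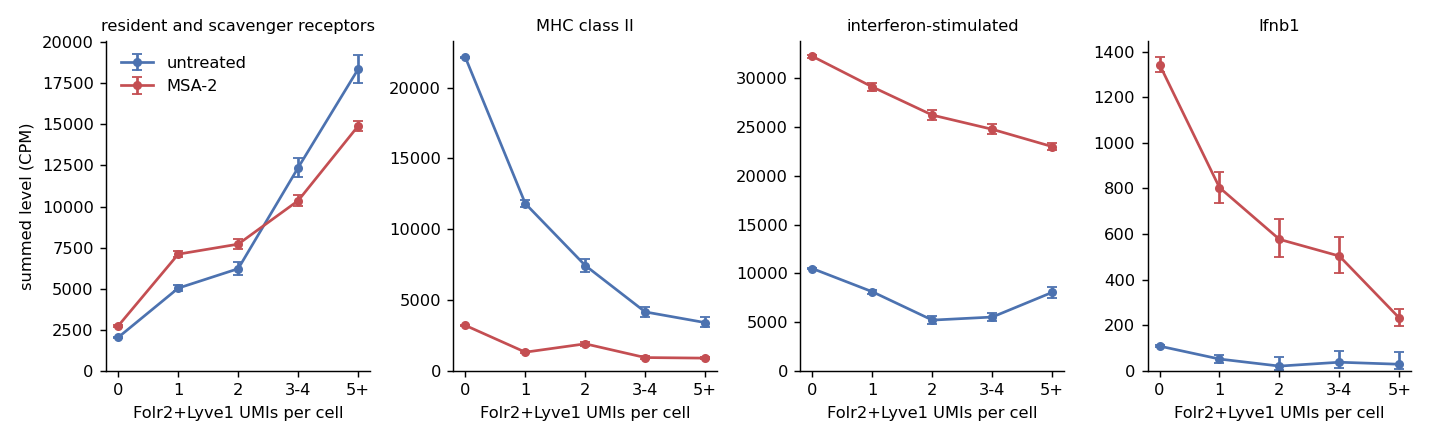
Summed level in CPM of the resident and scavenger receptor genes, the MHC class II genes, the interferon-stimulated genes and Ifnb1 in C1q cells grouped by their Folr2 and Lyve1 UMIs, for the untreated (blue) and MSA-2 (red) libraries, with exact 95% Poisson intervals. The untreated classes from 2 UMIs upward hold 25, 18 and 16 cells; the resident genes climb along the classes in both libraries.

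Members with both markers were also set beside those with Folr2 alone, a split that uses the UMIs of the rule. In the untreated library Mrc1 was at 1028 CPM in the 26 members with both markers and 249 CPM in the 28 with Folr2 alone, and Cbr2 at 572 and 32.5 CPM. Cd163 gave 17 UMIs in members with both markers and 0 in those with Folr2 alone, all from 4 cells. After MSA-2 the gap was smaller, with Mrc1 at 986 and 574 CPM and Cbr2 at 514 and 218 CPM. Cd163 was then at 70.2 and 33.5 CPM, from 40 and 24 UMIs. The part of marker count and depth in these gaps was not tested.

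The comparison of MSA-2 with untreated members addresses how the transcripts of these cells differ under STING agonist treatment. Of 3524 genes compared, 334 (9.48%) were at least 2-fold higher in MSA-2 members and 193 (5.48%) at least 2-fold lower, around a median log2 ratio of -0.06. At 2000 UMIs per cell, with 31 untreated and 71 MSA-2 members, the counts were 100 and 39. Over all alternatives they ran from 100 to 721 and from 35 to 458. The number of genes that pass the filter can differ between alternatives and is not given, so these counts cannot be read as shares of genes compared. In other C1q cells 317 of 3452 genes (9.18%) were higher and 102 (2.95%) lower. With 59 and 172 cells the member sums rest on 383205 and 1298356 UMIs, against 19877390 and 5526510 in other C1q cells, so member ratios carry more counting error.

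Of the 16 gene lists, that of interferon-stimulated genes held the most genes past the fold upward in MSA-2 members. Of 35 listed genes with at least 10 UMIs, 29 were at least 2-fold higher and 0 lower, with a median log2 ratio of 2.09, against 12.1% of all genes upward and a median of -0.04. Their summed level was 6083 CPM untreated and 24264 CPM after MSA-2. In other C1q cells 28 of 35 were higher, where 6.12% of all genes were, with a median of 1.73 and summed levels of 10398 and 31855 CPM. Members were thus the lower of the groups in the untreated library, with 12 of 35 genes at least 2-fold below other C1q cells untreated and 0 after MSA-2, where 18.2% and 7.82% of all genes with 10 UMIs were that much lower. The median log2 ratios to other C1q cells were -0.85 and -0.24, the latter -0.045 and 0.052 when cells were thinned to 2000 and 5000 UMIs.

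Single genes of the list spanned a wide range. Gbp5, a GTPase that assembles on pathogen membranes, had 3 UMIs untreated, 7.83 CPM, and 385 CPM after MSA-2, a log2 ratio of 5.62 (4.06 to 7.90). The schlafen gene Slfn4 had 2 UMIs, 5.22 CPM, and 387 CPM, a ratio of 6.21 (4.35 to 9.26). The mitochondrial nucleotide kinase Cmpk2 was at 13 CPM untreated and 491 after MSA-2, a ratio of 5.23 (4.0 to 6.86). Outside the list, Ifit1bl1, of the IFIT family of antiviral RNA-binding proteins, had 0 UMIs untreated and 136 CPM after MSA-2. Its log2 ratio was at least 4.12 against a floor of 3 UMIs. The RNA-binding proteins Ifit1 and Ifit3 were at 117 and 102 CPM untreated and 1201 and 1051 CPM after MSA-2, and viperin (Rsad2), which makes an antiviral nucleotide, at 603 CPM untreated and 3423 after MSA-2. The chemokine Cxcl10, which attracts T cells through Cxcr3, was at 916 CPM untreated and 3889.5 after MSA-2. Genes within the fold included Bst2, Gbp2, Zbp1, Cxcl9 and Ifi204, whose log2 ratios lay between 0.80 and 0.94.

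UMIs of Cxcl10 and Isg15 were found in many lymphocytes as well, at shares near or below those of members. At 2000 UMIs, 77.2% of untreated and 94.1% of MSA-2 members had a Cxcl10 UMI, against 62% and 92.6% of Cd3 cells. The shares for the ubiquitin-like modifier Isg15 were 36.8% and 84.1% in members and 34.1% and 73% in Cd3 cells. Unthinned, the MSA-2 shares were 172 of 172 members and 99.4% of Cd3 cells for Cxcl10, and 98.8% and 92.8% for Isg15. Free RNA and expression by the members themselves cannot be told apart from these shares alone.

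Interferon-stimulated promoters often hold copies of a short repeat bound by interferon-activated factors, and the promoters of genes that were high together in MSA-2 members were searched for its letters, GAAANNGAA on both strands, overlaps included. The windows run from 250 bases before to 50 bases after the start of RefSeq transcripts in GRCm38.p6. The letters occurred in 2812 of 32851 promoters (8.56%), in at least 1 promoter of 311 of 2823 genes compared in members that have an entry (11%), and in 19 of the 30 interferon-stimulated list genes with an entry (63.3%). Shown are the 3 list genes with the highest log2 ratio in members among those with a match and 1 entry, and 1 of the 2 entries of Folr2, 5′ to 3′ on the strand of the gene, with matches in capitals. Gbp5 lies at chr3:142496684-142496983 on the plus strand with 1 match, Ifit3 at chr19:34583279-34583578 and Ifit1 at chr19:34640639-34640938, both on the plus strand with 3 matches, of which 2 overlap in Ifit1. The Folr2 window at chr7:101857141-101857440 on the minus strand holds 1 match and its other entry 0. All matches shown read on the opposite strand.
Gbp5: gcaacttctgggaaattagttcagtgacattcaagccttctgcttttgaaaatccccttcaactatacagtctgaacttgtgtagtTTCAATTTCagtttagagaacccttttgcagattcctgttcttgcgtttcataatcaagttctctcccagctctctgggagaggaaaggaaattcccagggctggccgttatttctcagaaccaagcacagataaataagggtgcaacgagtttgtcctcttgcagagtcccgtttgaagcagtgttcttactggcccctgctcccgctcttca
Ifit3: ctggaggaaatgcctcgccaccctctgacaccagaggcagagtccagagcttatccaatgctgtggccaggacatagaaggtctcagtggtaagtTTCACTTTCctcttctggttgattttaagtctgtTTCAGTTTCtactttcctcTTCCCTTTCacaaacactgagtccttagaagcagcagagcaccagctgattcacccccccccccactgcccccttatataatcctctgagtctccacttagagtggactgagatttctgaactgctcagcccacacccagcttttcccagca
Ifit1: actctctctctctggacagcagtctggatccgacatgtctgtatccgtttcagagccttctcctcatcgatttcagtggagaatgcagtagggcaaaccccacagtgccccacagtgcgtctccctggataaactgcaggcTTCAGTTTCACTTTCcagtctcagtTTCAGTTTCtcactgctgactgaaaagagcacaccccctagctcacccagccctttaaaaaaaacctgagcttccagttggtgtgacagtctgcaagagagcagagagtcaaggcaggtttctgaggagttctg
Folr2: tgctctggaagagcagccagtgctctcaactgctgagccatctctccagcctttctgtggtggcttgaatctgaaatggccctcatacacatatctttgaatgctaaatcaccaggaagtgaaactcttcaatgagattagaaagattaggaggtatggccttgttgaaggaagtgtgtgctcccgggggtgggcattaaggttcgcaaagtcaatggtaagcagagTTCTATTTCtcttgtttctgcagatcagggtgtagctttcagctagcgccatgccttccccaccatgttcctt

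A match describes letters and shows neither binding nor a cause. The log2 ratios of Gbp5, Ifit3 and Ifit1 in members were 5.45, 3.35 and 3.34. In the GENCODE annotation of the same build the Folr2 gene spans chr7:101839988-101857194 and Lyve1 chr7:110850607-110863239, both on the minus strand, and C1qa spans chr4:136895917-136898803 on the minus strand.

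The interferon beta gene itself was higher as well. Ifnb1 was at 28.7 CPM untreated and 389 after MSA-2 in members, a log2 ratio of 3.71 from an untreated share of cells that at equal depth could not be told apart from background, and the difference from the ratio in other C1q cells was 0.17 (-0.69 to 1.04), an interval that includes 0. Ifna2 and Ifna4, which encode interferon alpha subtypes, gave 6 UMIs each in MSA-2 members and 0 untreated, and were at 4.62 and 4.62 CPM against 47.6 and 16.3 CPM in other C1q cells, but the untreated floor of 3 UMIs is 7.83 CPM, so no ratio of these 2 can be read. The STING gene, listed as Tmem173, was at 62.6 CPM untreated and 44.7 after MSA-2, and its kinase Tbk1 at 80.9 CPM untreated and 105 after MSA-2. Over the list of type I interferon and STING genes 2 of 8 were past the fold upward and 0 downward, with a median of 0.36, where 12.1% of all genes were upward and 7.5% downward.

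Antigen presentation genes of class II were lower in MSA-2 members. All 6 class II list genes with at least 10 UMIs were at least 2-fold lower in MSA-2 members, with a median of -2.02 and a summed level of 5198 CPM untreated and 1161 CPM after MSA-2, where 7.5% of all genes were that much lower. The class II chains H2-Aa and H2-Eb1 were at 832 and 1031 CPM untreated and 169 and 165 CPM after MSA-2, and the invariant chain Cd74 at 2210.3 CPM untreated and 538 after MSA-2. In other C1q cells the list was at 21774 CPM untreated and 2975 CPM after MSA-2, with a median of -2.92. Members were thus lower than other C1q cells in each library, with 7 of 7 genes past the fold untreated and 6 after MSA-2, and medians of -2.08 untreated and -1.26 after MSA-2 (-1.24 with Ciita, at 0 UMIs in MSA-2 members and not readable at its floor, set to it), against the 18.2% and 7.82% of all genes lower. The log2 ratios differed between members and other C1q cells by between 0.09 (-0.50 to 0.68) for H2-DMa, an interval that includes 0, and 0.91 (0.68 to 1.15) for H2-Ab1, less negative in members.

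A Cd74 UMI was found at 2000 UMIs in 78.9% of untreated and 35.3% of MSA-2 members, and in 36.6% and 10.8% of Cd3 cells. Unthinned the member shares were 94.9% and 53.5%. Background counts of Cd74 were also lower after MSA-2, and their part in the difference was not tested. Class I genes differed less. None of the 9 was 2-fold lower and 1 was 2-fold higher, a share near the 12.1% of all genes. Their median was 0.52, 0.97 at 2000 UMIs per cell, against -0.03 in other C1q cells, and the immunoproteasome genes Psmb8 and Psmb9 were at -0.22 and 0.04. The class I heavy chain H2-K1 was at 2531 CPM untreated and 4091 after MSA-2 in members and 2584 and 2529 CPM in other C1q cells, a difference in log2 ratio of 0.72 (0.62 to 0.83).

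The resident program itself was similar in sum and mixed by gene. It summed to 11665 CPM in members of the untreated library and to 11905 CPM in those of the MSA-2 library, with 3 of 29 genes at least 2-fold higher, 10 lower and a median of -0.41, where 12.1% of all genes were higher and 7.5% lower. In other C1q cells 10 of 25 were higher and 1 lower, with a median of 0.39, where 6.12% of all genes were higher and 3.43% lower. Among genes past the fold upward in members were the platelet factor gene Pf4, at 1607 CPM untreated and 3245 after MSA-2, the class A scavenger receptor Msr1, at 112 CPM untreated and 237 after MSA-2, and the complement receptor Vsig4, with 1 UMI untreated and 56 after MSA-2, 43.1 CPM. Among those past the fold downward were Cd209f, Gas6, Ednrb, insulin-like growth factor Igf1, at 136 CPM untreated and 45.4 after MSA-2, the scavenger receptor Marco, at 54.8 CPM untreated and 22.3 after MSA-2, the lectin Mgl2, with 15 UMIs and 1, and the scavenger-like receptor Fcrls, at 292 CPM untreated and 38.5 after MSA-2. Mrc1, Cd163, Ccl8 and Fcna had log2 ratios between -0.16 and 0.28. The SIGN-R lectin Cd209d gave 20 UMIs untreated and 0 after MSA-2, where the floor of 3 UMIs is 2.31 CPM.

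**Figure D4:**
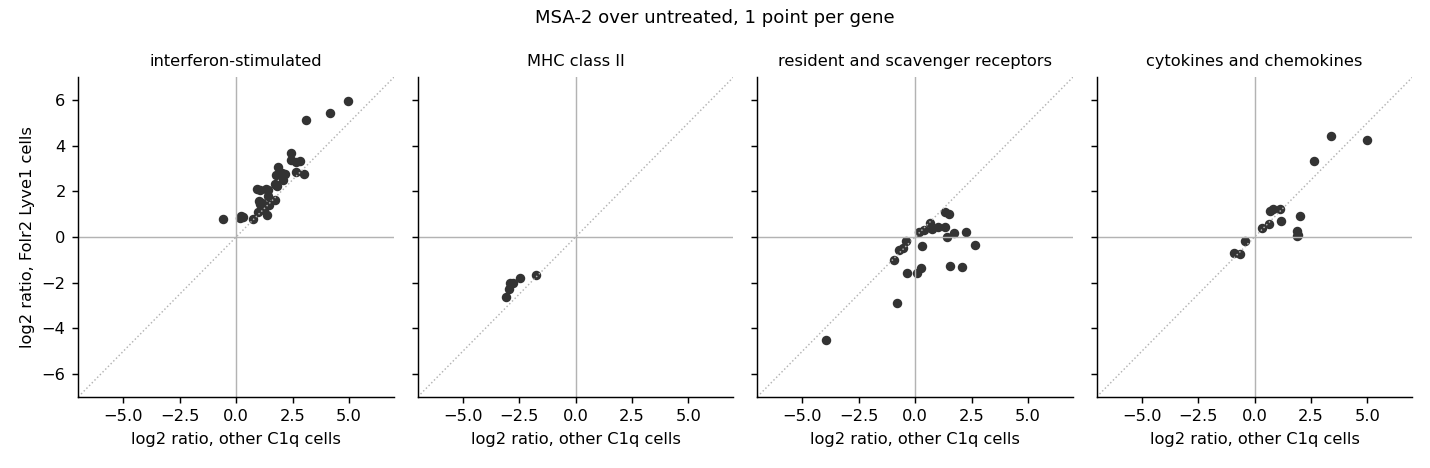
Log2 ratio of MSA-2 over untreated in Folr2 Lyve1 cells (vertical axis) against the same ratio in other C1q cells (horizontal axis), 1 point per gene of each list with at least 10 UMIs in both groups; the dotted line marks equal ratios. Most interferon-stimulated genes and all class II genes lie on or above the line, and most resident and scavenger receptor genes below it.

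Several resident genes thus stood nearer to those of other C1q cells after MSA-2 than before. The coagulation factor gene F13a1 was at 934 CPM untreated and 730.2 after MSA-2 in members, while other C1q cells had 43.9 and 278 CPM, a difference in log2 ratio of -3.02 (-3.23 to -2.81). For Ednrb the difference was -3.76 (-4.43 to -3.10), for Cbr2 -2.25 (-2.72 to -1.79) and for Fcna -2.02 (-2.93 to -1.11). In each, the level in other C1q cells was higher after MSA-2. Of other C1q cells, those with 1 marker UMI made up 130 of 1286 after MSA-2 and 108 of 3580 untreated. For Cbr2, cells with 0 marker UMIs had 3.34 CPM untreated and 13.2 CPM after MSA-2, and cells with 1 had 53 and 133 CPM. Its level was thus higher after MSA-2 without the cells just outside the limit as well. For the other genes named here the part of such cells is not given.

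Over 3116 genes that passed the filter in both groups, the interval of the difference in log2 ratio between members and other C1q cells lay above 0 for 395 and below 0 for 399, around a median of 0.05. The largest was that of Ly6c2, 3.46 (0.62 to 6.31), with 1 UMI in untreated members, and it was negative when cells were thinned to 2000 UMIs. The early activation gene Cd69 followed at 2.67 (0.66 to 4.69), from 2 UMIs untreated, and the calcium homeostasis modulator Calhm6 at 2.49 (1.32 to 3.67), at 15.7 CPM untreated and 173 after MSA-2 in members and 57.1 and 112 CPM in other C1q cells. The noncoding transcript A330040F15Rik was at 2.32 (0.30 to 4.34). Complement component C3 was at 23.5 CPM untreated and 191 after MSA-2 in members, from 9 and 248 UMIs, and at 63 and 108 CPM in other C1q cells, a difference of 2.25 (1.28 to 3.22). At the other end stood F13a1 and the iron-binding lipocalin Lcn2, at -3.08 (-6.11 to -0.04), followed by Saa3, at -2.92 (-3.41 to -2.43), the protease inhibitor Slpi, at -2.74 (-3.35 to -2.13), and the neutrophil-attracting chemokine Cxcl3, at -2.29 (-2.89 to -1.69). At 2000 UMIs per cell the differences were -3.62 for F13a1, -1.70 for Saa3, -4.27 for Slpi and -4.01 for Cxcl3, outside the intervals given. All 5 were higher after MSA-2 in other C1q cells, by a larger factor than in members or, for F13a1, with a lower level in members.

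Saa3 was the most abundant of the 15 genes named for the highest log2 ratios in members. It was at 149 CPM untreated and 5077 after MSA-2, from 57 and 6592 UMIs, a log2 ratio of 5.09 (4.72 to 5.50), and members exceeded other C1q cells in both libraries. Lcn2 had 1 UMI untreated and 112 CPM after MSA-2, a ratio of 5.42 (2.92 to 10.73). Both encode acute-phase proteins.

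Cytokines and chemokines were higher in part. Of 16 genes with at least 10 UMIs, 6 were at least 2-fold higher and 0 lower in MSA-2 members, where 12.1% of all genes were higher and 7.5% lower, with a median of 0.64 and summed levels of 21678 CPM untreated and 34012 CPM after MSA-2. The median was 0.13 at 2000 UMIs per cell and 0.073 with at least 5 marker UMIs, so it depended on which cells entered. Compared with other C1q cells, 3 of 19 of these genes were higher and 7 lower in untreated members, with a median of -0.54 (0.12 with genes at 0 UMIs set to their floor). Of the 7, Ccl17 and Ccl22 had 0 UMIs and were not past the fold at the floor of 3 UMIs. After MSA-2, 1 of 18 was higher and 2 lower, with a median of -0.62. Of all genes 6.31% were higher and 18.2% lower untreated, and 3.4% and 7.82% after MSA-2. The interleukin-27 subunit gene Il27 had 1 UMI untreated and 76.3 CPM after MSA-2, a log2 ratio of 4.87 (2.36 to 10.19), and the inflammatory cytokine Il6 had 2 UMIs and 116 CPM, a ratio of 4.47 (2.59 to 7.53). The T cell chemokine Ccl5 was at 423 CPM untreated and 4208 after MSA-2, Ccl4 at 3724 CPM untreated and 8736 after MSA-2 and Ccl3 at 689 CPM untreated and 1611 after MSA-2. In contrast, genes for Cxcl2, Il10 and Tnf had log2 ratios of 0.08, 0.06 and 0.94 in members and of 1.93, 1.88 and 1.99 in other C1q cells, with differences of -1.85 (-1.92 to -1.78), -1.85 (-2.27 to -1.44) and -1.06 (-1.32 to -0.80). In the untreated library members held 5587 CPM of Cxcl2 and 180.1 CPM of Il10, against 2103 and 32 CPM in other C1q cells. Il1b was lower after MSA-2 in both groups, with log2 ratios of -0.70 and -0.92. Ccl17 had 0 UMIs in members of both libraries.

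The highest ratios in members included genes known from neutrophils, whose summed level was also higher over all kept cells of the MSA-2 library. The calprotectin genes S100a9 and S100a8, the lipase inhibitor G0s2 and the resistin-like gene Retnlg had 0 UMIs in untreated members and 692, 369, 145 and 87 CPM in MSA-2 members, log2 ratios of at least 6.47, 5.56, 4.21 and 3.47 against the floor. The neutrophil list summed to 36.5 CPM in untreated members, where only Csf3r was detected, and to 1381 CPM after MSA-2, with S100a9 the most abundant and all 8 genes detected. It was at 2746 CPM in other C1q cells and 3199 CPM over all kept cells of the MSA-2 library, against 19.3 CPM over all kept untreated cells. An S100a9 UMI was found at 2000 UMIs in 38.2% of MSA-2 members and 37.2% of Cd3 cells, so the member share was at background. Unthinned the shares were 77.3% and 62%. Heatr9 had 0 UMIs untreated and 50.1 CPM after MSA-2, a log2 ratio of at least 2.68.

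Ly6c2 and Cd69 had 1 and 2 UMIs in untreated members and 75.5 and 119 CPM after MSA-2, log2 ratios of 4.85 (2.34 to 10.17) and 4.52 (2.64 to 7.57). With 1 CPM added that of Ly6c2 was 4.41, and 1.08 at 2000 UMIs per cell and 2.09 with at least 5 marker UMIs. At 2000 UMIs a Ly6c2 UMI was found in 10.6% of MSA-2 members, 28% of other C1q cells and 19.6% of Cd3 cells, which can express the gene themselves. Unthinned the shares were 21.5%, 34.4% and 36.7%. The member share was the lowest of the 3, so no expression can be read from it.

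Genes lower in MSA-2 members included surface receptors, matrix genes and growth factors. The stress cytokine Gdf15 was at 316 CPM untreated and 30.8 after MSA-2, a log2 ratio of -3.36 (-3.91 to -2.83). The fractalkine receptor Cx3cr1 was at 144 CPM untreated and 13.9 after MSA-2, a ratio of -3.37 (-4.23 to -2.58), and fibronectin Fn1 at 838 CPM untreated and 112 after MSA-2, a ratio of -2.91 (-3.20 to -2.62). All 3 were also lower in other C1q cells, with ratios of -2.38, -1.45 and -1.09. Further receptors with a lower level were Fcrls, the Cxcl12 receptor Cxcr4, at 86.1 CPM untreated and 14.6 after MSA-2, and the TGF-beta receptor Tgfbr1, at 99.2 CPM untreated and 17.7 after MSA-2. Bmp2, a ligand of the TGF-beta superfamily, was at 120.0 CPM untreated and 27 after MSA-2, against 7.4 and 7.24 CPM in other C1q cells, so its level was higher in members than in other C1q cells of either library. The creatine synthesis enzyme Gatm, the lysophospholipid acyltransferase Lpcat2 and Syngr1, a vesicle membrane protein, had log2 ratios of -2.10, -2.09 and -2.57. With at least 5 marker UMIs required, Tgfbr1, Gatm and Lpcat2 were at -0.58, -0.87 and -0.53, within the fold.

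The matrix-associated genes Mfap5, Postn and Ccn1 were low in count and depended on which cells entered. They had 35, 29 and 101 UMIs in untreated members, with log2 ratios of -2.57 (-3.44 to -1.74), -2.16 (-3.03 to -1.31) and -2.25 (-2.71 to -1.80). With 1 CPM added these were -2.49, -2.10 and -2.23. On that scale, with at least 5 marker UMIs required, the ratios were 0.52, 0.91 and 0.16. At 5000 UMIs per cell they were 1.77, 0.96 and 0.26, and at 2000 UMIs Mfap5 was at -0.18 and Postn at 0.37. With equal weight per cell Postn was at -0.22 and Mfap5 within the fold as well. Fibroblast genes, which include other matrix genes, summed to similar levels in members of both libraries, as given above, and the part of fibroblast RNA in these values was not tested.

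Of 14 growth factor and matrix genes 2 were at least 2-fold higher and 6 lower in MSA-2 members, where 12.1% of all genes were higher and 7.5% lower, with a median of -0.57 and summed levels of 2909.7 CPM untreated and 1269 CPM. The lower ones were Igf1, Gas6, Fn1, the angiogenic factor Vegfa, at 214 CPM untreated and 63.2 after MSA-2, the platelet-derived growth factor Pdgfb, with 22 and 4 UMIs, and the EGF-family ligand Hbegf, at 86.1 CPM untreated and 34.7 after MSA-2. The higher ones were the collagenases Mmp13, with 1 and 45 UMIs, and Mmp8, with 0 and 23 UMIs. After MSA-2 these 2 genes were at 34.7 and 17.7 CPM in members and at 99.3 and 24.6 CPM in other C1q cells. The part of free RNA in their counts was not tested. The list of growth factor and matrix genes was thus lower in sum in members after MSA-2. Its most abundant genes in untreated members, Timp2 and Fn1, do not encode growth factors. Timp2 was at 1067 CPM untreated and 662 after MSA-2, and Fn1 at 838 and 112 CPM.

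The remaining lists are given beside the same shares, 12.1% of all genes upward and 7.5% downward, and some counts were near them. Of checkpoint and tryptophan genes 3 of 10 were past the fold upward and 0 downward, with a median of 0.53. Cd274, which encodes PD-L1, was at 209 CPM untreated and 736 after MSA-2, and the sialic acid receptor Siglec1 at 20.9 CPM untreated and 102 after MSA-2. Ido1, the first enzyme of tryptophan breakdown, had 0 UMIs in members of both libraries. The floor of 3 UMIs is 7.83 CPM untreated and 2.31 CPM after MSA-2, above the 0.352 and 0.905 CPM of Ido1 in other C1q cells. Absence of Ido1 from members therefore cannot be read from these counts. Complement genes other than C1q had 3 of 9 past the fold upward and a median of 0.37, 0.79 at 5000 UMIs per cell, with factor B (Cfb) at 112 CPM untreated and 332 after MSA-2. Of efferocytosis genes 2 of 11 were past the fold upward and 1 downward, with a median of -0.41, and the receptor kinase Mertk was at 78.3 CPM untreated and 282 after MSA-2 and 105 and 297 CPM in other C1q cells. Of lipid-associated genes 2 of 12 were past the fold upward and 1 downward, with a median of 0.12, and the apolipoprotein Apoe, their most abundant gene, was at 19655 CPM untreated and 10357 after MSA-2. Iron handling genes had 1 of 8 past the fold upward, Lcn2, and a median of 0.16. Identity transcription factors had 1 of 13 upward, 2 downward and a median of -0.33, with the Kruppel-like factor Klf4 at 660.2 CPM untreated and 315 after MSA-2.

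Beside these shares of all genes, feedback genes of NF-kB and interferon signaling had 2 of 9 past the fold upward and a median of 0.13, with the ubiquitin-editing enzyme Tnfaip3 at 253 CPM untreated and 744 after MSA-2. Immediate-early genes, which tissue dissociation can induce, summed to 11746 CPM untreated and 9449 CPM after MSA-2, with 1 of 12 past the fold upward and 4 downward and a median of -0.25. In other C1q cells their sums were 13446 and 11024 CPM.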

How the data were processed

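The authors deposited whole-number UMI counts per gene and cell barcode, 1 matrix per library from 10x 3′ v3.1 chemistry. The matrix header names Cell Ranger 7.0.1, whereas the submitters' processing notes name Cell Ranger 7.0.0, mm10 and Seurat 4.3.0 and the published methods name other versions of both tools. Removal of doublets or background before deposit and a cell annotation are not given in the sources used here. Counts of 32285 features were read for 2 libraries, untreated and MSA-2, holding 198135335 and 204387165 UMIs, with the group taken from the labels. Members and comparison cells were chosen by UMI limits, with no clustering.

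UMIs were summed per library and cell group, scaled to CPM and compared as log2 ratios with 1 CPM added, for genes with at least 50 CPM in either group and 50 UMIs in both together, or 10 UMIs for genes of the lists. Intervals at 95% were binomial, conditional binomial or Poisson, and a sum of 0 was set to 3 UMIs for bounds. With 1 library per condition no test was run and no p-value is given. The code for ratios, their intervals and calls past the fold was tested on simulated UMI sums of members. Choice of cells, thinning, doublet calls and spread between cells or tumors were not part of that simulation. Scrublet (scanpy 1.11.5) called doublets in each library with an assumed rate of 0.8% per 1000 barcodes. Python 3.11.15, numpy 2.4.6, scipy 1.17.1 and pandas 2.3.3 were used.

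Named genes were the 15 at either end of the log2 ratios of MSA-2 over untreated members, the 15 with the highest lower value and the 15 with the lowest higher value of the 2 libraries' ratios of members over other C1q cells without the genes of the rule, the 5 largest and 5 smallest differences between members and other C1q cells in log2 ratio whose interval excludes 0, and any gene of the 16 lists. The results of 1 list and of some genes are not reported here. Marker genes of the 14 cell type lists were named where they led a list or were at 0. Cxcl11, Sting1 and Ero1a were not found by symbol, and STING was read as Tmem173. Alternatives were other limits on cells and markers, thinning, doublet removal, equal weight per cell, centring on the median gene, other added CPM, other filters, and other C1q cells without a marker UMI. Removal of barcodes found in both libraries was added after seeing the data. Members and lists were chosen with earlier results of these data known.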

Additional observations from a re-analysis of the deposited data

How the results depend on the processing

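The member share of C1q cells kept its direction over 15 alternatives, with log2 ratios of 2.17 to 3.66, and that of kept cells with 0.86 to 2.22. For the first, the value was 2.17 with at least 1 marker UMI required, 3.53 with at least 5 and 3.66 at 5000 UMIs per cell, and for the second 0.86 and 2.22 with at least 1 and at least 5. Removing barcodes found in both libraries, an alternative chosen after seeing the data, moved neither beyond its counting interval. The cause of these shifts was not tested.

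The filter on low values set how many genes could be counted. With at least 10 CPM and 20 UMIs, 721 genes were 2-fold higher and 458 lower in MSA-2 members, and 136 higher and 121 lower than in other C1q cells in both libraries. With 200 CPM and 200 UMIs these counts were 120, 35, 25 and 9. At 2000 UMIs per cell 100 genes were higher and 39 lower in MSA-2 members, and 101 were lower than in other C1q cells in both libraries. At 5000 UMIs 116 were lower in MSA-2 members, and with 10 CPM added 126. With at least 3 and at least 5 marker UMIs, 84 and 94 genes were lower than in other C1q cells in both libraries. The number of genes compared in each of these settings is not given, so the counts cannot be read as shares.

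The class II median in members was -2.28 with equal weight per cell, -2.29 at 2000 UMIs and -1.71 with at least 5 marker UMIs. The resident and scavenger receptor median over other C1q cells was 2.35 untreated and 1.76 after MSA-2 with 10 CPM added, and 2.19 after MSA-2 at 2000 UMIs. The interferon-stimulated median over other C1q cells after MSA-2 was -0.045 at 2000 and 0.052 at 5000 UMIs. Adding more CPM shrinks ratios by construction, and the cause of the other shifts was not tested. The interferon-stimulated median in members was between 1.85 and 2.22 over all alternatives.

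A direction reversed for Postn, at 0.37 at 2000 UMIs, 0.96 at 5000 UMIs and 0.91 with at least 5 marker UMIs, for Mfap5, at 1.77 at 5000 UMIs and 0.52 with at least 5 marker UMIs, for Ccn1, at 0.26 and 0.16 in the same settings, for the untreated iron handling median over other C1q cells, at -0.000123 at 2000 UMIs, and for the Ly6c2 difference, at -0.27 at 2000 UMIs. The cause was not tested. Of 1870 further values of 139 results, 1625 stayed within their counting interval, 236 moved, 9 reversed and 1840 kept their sign. A reversal is counted only for values past the fold, and the other changes of sign were in list medians reported nearer 0 than the fold, such as the growth factor and matrix median over other C1q cells untreated, at -0.98 with at least 5 marker UMIs, and the efferocytosis median after MSA-2, at 0.17 at 2000 UMIs. Among single genes past the fold, some came closer to 0, such as Il6 at 2.47 with at least 5 marker UMIs, Cxcr4 at -1.41 at 5000 UMIs and Ptprm after MSA-2 at 1.54 at 2000 UMIs. With 59 untreated members at a median of 6063 UMIs, genes of few UMIs have wide intervals, and 1 library per condition leaves the spread between tumors unmeasured. No paired analysis was possible because each condition has 1 library.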
